A study of Mus musculus with 3 samples.

Results

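The enzymes that remove superoxide and peroxides, and those that make and recycle glutathione, were followed in pools of mouse four-cell embryos. The set held 10 genes, the superoxide dismutases Sod1, Sod2 and Sod3, the catalase gene Cat, the glutathione peroxidases Gpx1, Gpx3 and Gpx4, both subunits of glutamate-cysteine ligase (Gclc and Gclm) and the glutathione reductase Gsr. Every probe whose gene name on the array was one of these was taken, without regard to its signal. This gave 14 probes for the 10 genes, among 41174 probes with 27962 gene names.

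The tested pools (HP) came from oocytes exposed to high hydrostatic pressure of 20 MPa for 60 min at 37 °C, and the control pools from oocytes handled alike without pressure. Per the sample labels all oocytes were then fertilised by sperm injection (ICSI) and grown to the four-cell stage, whereas the title of the series names in vitro fertilisation. Pools of 44, 30 and 37 HP embryos were paired on 3 two-colour arrays with pools of 36, 33 and 24 control embryos (replicates 1, 2 and 3). No strain, age or genotype is given in the sources used here. Each value is therefore the average of a whole pool of embryos, read from 240 pg of total RNA after repeated amplification.

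Superoxide, which leaks from respiration, is converted by superoxide dismutases to hydrogen peroxide. Catalase breaks hydrogen peroxide down directly, whereas glutathione peroxidases reduce it, and lipid peroxides, at the expense of the tripeptide glutathione. Glutamate-cysteine ligase carries out the rate-limiting step of glutathione synthesis, and glutathione reductase returns oxidised glutathione to its reduced form with NADPH. In mammals the oocyte supplies the early embryo with glutathione and with much of its mRNA.

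The HP pool was labelled with Cy5 and the control pool with Cy3 on every array, so dye and treatment cannot be told apart. All 3 arrays lay on 1 slide and no spot was saturated. Between 17.5% and 19.9% of the gene spots of an HP pool, against 18.5% to 23.2% of those of a control pool, were called well above background by the scanner software. Of 10 oocyte and embryo marker genes, 6 were above background in each HP pool and 5 to 7 in each control pool, with Zp2, Nlrp5 and Ooep in none. Cumulus cell markers reached 1 or 2 of 12 genes per pool in either treatment (Amhr2, Cyp11a1 and Ptx3). The red cell gene Hba-a1 was above background in all 3 HP pools and in the control pool of replicate 2. Of 5 sperm genes, Prm1 and Prm2 gave 0 or 1 above background in an HP pool, against 1 or 2 in a control pool, and the part of these cells in the results was not tested.

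The probes on which the results turn are 60 bases long, and the first 30 bases of each are printed here as the array file gives them, 5′ to 3′. They show which stretches were read, and where 1 gene was read more than once. Capitals mark bases that another probe of the same gene shares.
Sod1 A_51_P367381: cagtaaacattccctgtgtggtctgagtct
Sod1 A_51_P425205: gtattttatttagtatcaagtattgcttgc
Sod1 A_52_P3581: ccttcttaaaagccaaggtctttaaatgtg
Sod2 A_51_P172573: ggctggtttatagtagtgtagagcattgca
Gpx4 A_51_P462448: agtttctcattgataagaacggctgcgtgg
Gclc A_51_P365019: agtgaactggcttgtacattttgaattctt
Gsr A_51_P359625: GGAACAAAGTGCATTAAAGTTAGACTTGAG
Gsr A_52_P346738: gggaggaaccgatcgagtttacgcccagct
In mm7 coordinates of the array design, the Sod1 probes lie at chr16:90276179-90276238, chr16:90272955-90273014 and chr16:90273863-90273922, in the order printed. The Sod2 probe lies at chr17:11746836-11746895, the Gpx4 probe at chr10:79836650-79836709 and the Gclc probe at chr9:77835053-77835112. The Gsr probes lie at chr8:32465796-32465855 and chr8:32465210-32465269. A further Gsr probe, A_52_P91604 at chr8:32465775-32465834, shares 39 consecutive bases with A_51_P359625, so these probes read nearly the same stretch, whereas A_52_P346738 reads another one. The Sod1 probes share no run longer than 7 bases. Exon, intron and UTR positions were not analysed here.

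Transcripts of 6 of the 10 genes were measurable and those of the other 4 were not. Tests were limited to probes with a well above background call on 2 or more arrays in 1 and the same channel, which held for 8 of the 14 probes. These covered Sod1, Sod2, Gpx1, Gpx4 and Gclc with 1 probe each and Gsr with 3. Signals in both channels of all 3 arrays were found for 5 probes, those of Sod1, Sod2, Gpx1, Gclc and 1 of the Gsr probes. Sod3, Gpx3 and Gclm, each with 1 probe, were not well above background in any of the 6 pools, nor were the Sod1 probes A_51_P425205 and A_52_P3581. For these 5 probes the normalised log2 signal lay between 6.19 and 6.34 in every pool.

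**Figure D1:**
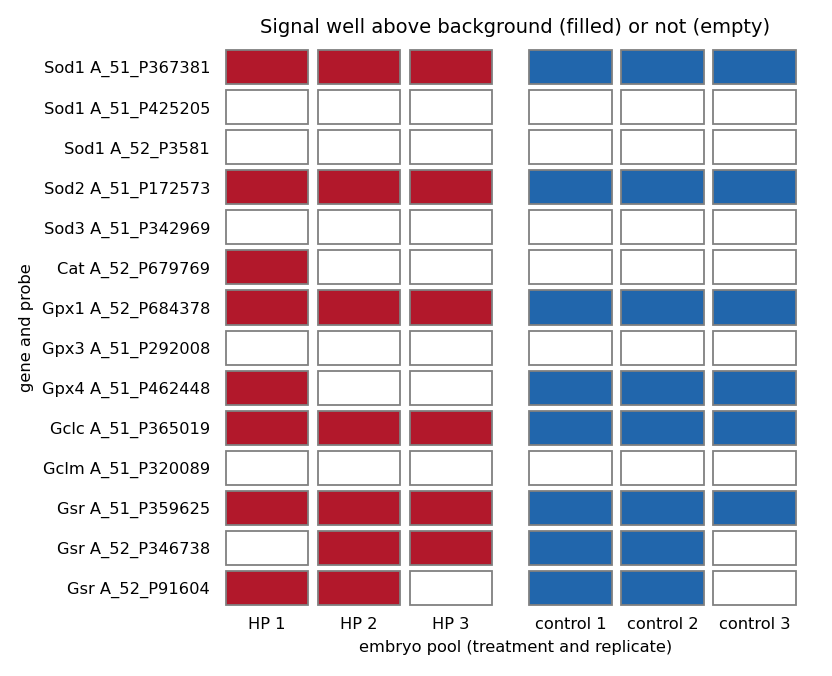
Calls of the scanner software for the 14 probes (rows) in the 3 HP pools (red) and the 3 control pools (blue), filled where the signal was well above background. The rows of Sod3, Gpx3, Gclm and 2 of the 3 Sod1 probes are empty, and Gpx4 is filled in 1 HP pool and in all 3 control pools.

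None of the 8 tested probes differed between HP and control embryos after adjustment over all 8590 tested probes. All 8 had a mean ratio below 0, that is a lower signal in HP, with a median log2 ratio of −0.15, against −0.02 over all tested probes. Gclc and Gpx4 stood lowest, at −0.45 and −0.39, and Sod1 was closest to 0. This order depended on the scaling: with arrays centred on their median, Sod2 was at −1.05, Sod1 at −0.96, Gclc at −0.91 and Gpx4 at −0.69. In pooled embryos, fewer cells with a transcript and less of it per cell cannot be told apart.

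Sod1 encodes the copper-zinc dismutase of the cytosol. Its probe A_51_P367381 gave normalised log2 signals of 10.40, 10.45 and 10.35 in HP pools 1, 2 and 3, against 10.12, 10.68 and 10.42 in control pools 1, 2 and 3. The HP values all lay inside the range of the control values. The log2 ratios were 0.28, −0.23 and −0.06, with a mean of −0.01 ± 0.15 (moderated standard error, n = 3 arrays). The 95% interval of this mean, not adjusted for the number of probes, was −0.41 to 0.40 (limma adjusted p = 0.986), so a difference of up to about 1.32-fold higher or to 0.75 of the control signal lay inside it. The sign of this mean was positive without replicate 2 (0.11) and without replicate 3 (0.02), and with no intensity offset (0.03). With median centring it was −0.96 (limma adjusted p = 0.0829).

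The other Sod1 probes gave no measurable transcript. A_51_P425205 was printed 10 times on each array, and 0 of its 10 spots were above background in any HP or control pool. The SD of the log2 ratio over its repeated spots was 0.07, 0.04 and 0.03 on replicates 1, 2 and 3, which is the spread of repeated spots on 1 array at this dim level. The array design ties both probes to the transcript record BC057074 rather than to the RefSeq transcript of Sod1, and that record is not in the RefSeq table used here. No statement on the Sod1 mRNA read by A_51_P367381 is drawn from them.

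Sod2, the manganese dismutase of mitochondria, gave log2 signals of 9.74, 9.74 and 9.72 in HP pools and of 10.09, 9.90 and 9.67 in control pools. The HP pools were nearly equal (SD 0.01), the control pools spread more widely (SD 0.21), and the groups overlapped. The ratios were −0.35, −0.16 and 0.05, with a mean of −0.16 ± 0.13 and an interval of −0.51 to 0.20 (limma adjusted p = 0.526). When arrays were centred on their median instead of by loess, the mean was −1.05 (adjusted p = 0.0422), the only member probe past the threshold in any setting, but that scaling put the median of all tested probes at −0.37. Sod3, the secreted dismutase, had raw spot signals of 48.6, 49.1 and 51.6 in HP pools and of 51.7, 50.8 and 54.3 in control pools, over local backgrounds of 35, 39 and 36 in HP and of 24, 25 and 25 in control.

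**Figure D2:**
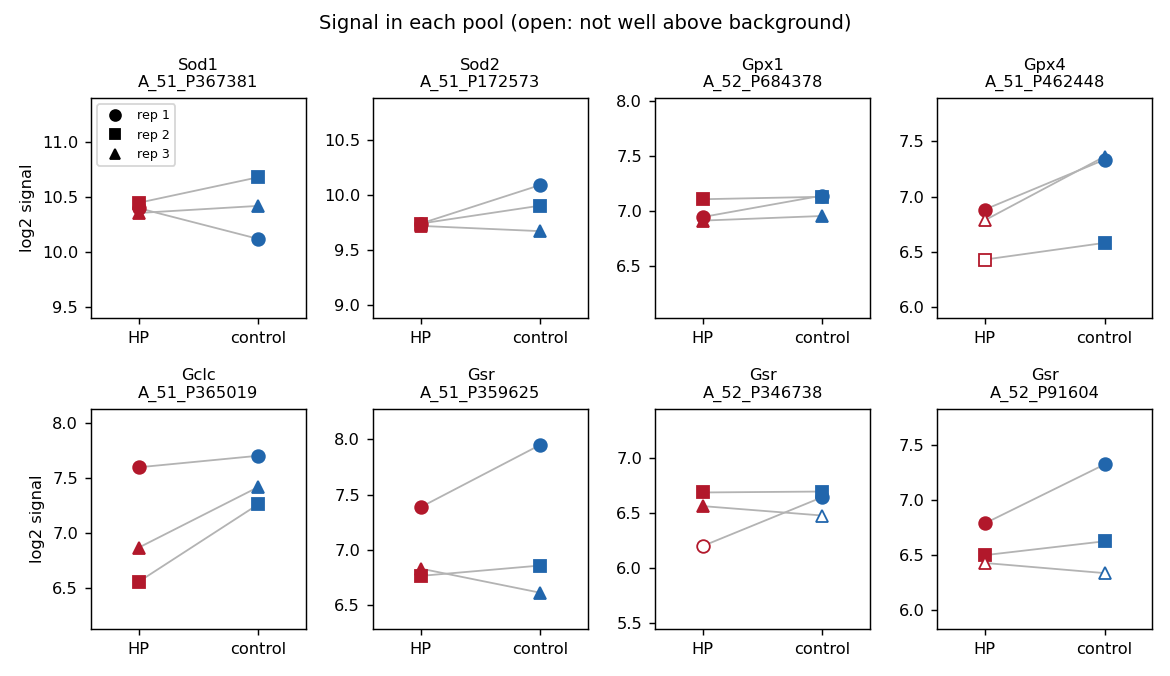
Normalised log2 signal of the 8 tested probes in HP pools (red, left) and control pools (blue, right), each panel 2 log2 units high. Lines join the pools of 1 array and open symbols mark pools where the probe was not well above background; the groups overlap in every panel, and Sod2 is nearly equal in the 3 HP pools.

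Catalase is the peroxisomal enzyme that splits hydrogen peroxide. The Cat probe was above background in the HP pool of replicate 1 alone, so it was not tested. Its raw signals were 54.9, 46.0 and 44.4 in HP pools over local backgrounds of 34, 39 and 35, and 46.3, 51.9 and 51.5 in control pools over backgrounds of 24, 27 and 25. The log2 ratios were 0.28, −0.05 and 0.01. With 1 of 6 pools above background, no fold is given.

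The glutathione peroxidases differed in what could be read. Gpx1, the selenoenzyme that reduces hydrogen peroxide in the cytosol and mitochondria, gave log2 signals of 6.94, 7.10 and 6.91 in HP pools, against 7.14, 7.13 and 6.95 in control pools. Its ratios of −0.19, −0.02 and −0.04 were below 0 on all 3 arrays, yet small, with a mean of −0.09 ± 0.11 and an interval of −0.39 to 0.21 (limma adjusted p = 0.677). Gpx3, which is secreted into plasma, was at background in every pool.

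Gpx4, which reduces lipid hydroperoxides within membranes, had the second lowest mean ratio of the set. Its log2 signals were 6.88, 6.43 and 6.78 in HP pools, against 7.33, 6.58 and 7.36 in control pools. Every HP pool lay below its own control pool, but the groups overlapped because control pool 2 lay below HP pools 1 and 3. The ratios were −0.45, −0.15 and −0.58 and their mean was −0.39 ± 0.13, or 0.76 of the control signal. The unadjusted limma p was 0.0421 and the adjusted p 0.268, with a 95% interval of −0.77 to −0.02. Without replicate 1 or replicate 3 the unadjusted limma p was 0.108 and 0.208, and without replicate 2 it was 0.0408 (adjusted p = 0.528). The HP signal was above background on 1 of 3 arrays only, which makes the size of this ratio uncertain. Gpx4 was thus tested through its control signal alone. In the scanner's own processed ratios the mean was −1.61 (adjusted p = 0.264).

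Gclc, the catalytic subunit of glutamate-cysteine ligase, had the lowest mean. It gave log2 signals of 7.60, 6.56 and 6.87 in HP pools, against 7.70, 7.26 and 7.42 in control pools. HP pools 2 and 3 lay below every control pool, while HP pool 1 lay within the control range. The log2 ratios were −0.10, −0.70 and −0.55 and their mean was −0.45 ± 0.16, or 0.73 of the control signal. The unadjusted limma p was 0.0476 and the adjusted p 0.278, with a 95% interval of −0.90 to −0.01. Without replicate 2 or replicate 3 the unadjusted limma p was 0.185 and 0.190, and without replicate 1 it was 0.0128 (adjusted p = 0.111). The raw spot signals were 132, 61.5 and 60.6 in HP pools over local backgrounds of 36.5, 36 and 40, and 205, 172 and 171 in control pools over backgrounds of 26, 27 and 26. In the scanner's processed ratios the mean was −1.45 (adjusted p = 0.281), with −0.05, −2.19 and −2.10 on the 3 arrays, and in both scalings replicate 1 was nearest to 0. Gclm, the modifier subunit that makes the ligase more efficient, was at background in all 6 pools. The array design spreads the 60 bases of the Gclm probe over 2636 genomic bases on chromosome 3.

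**Figure D3:**
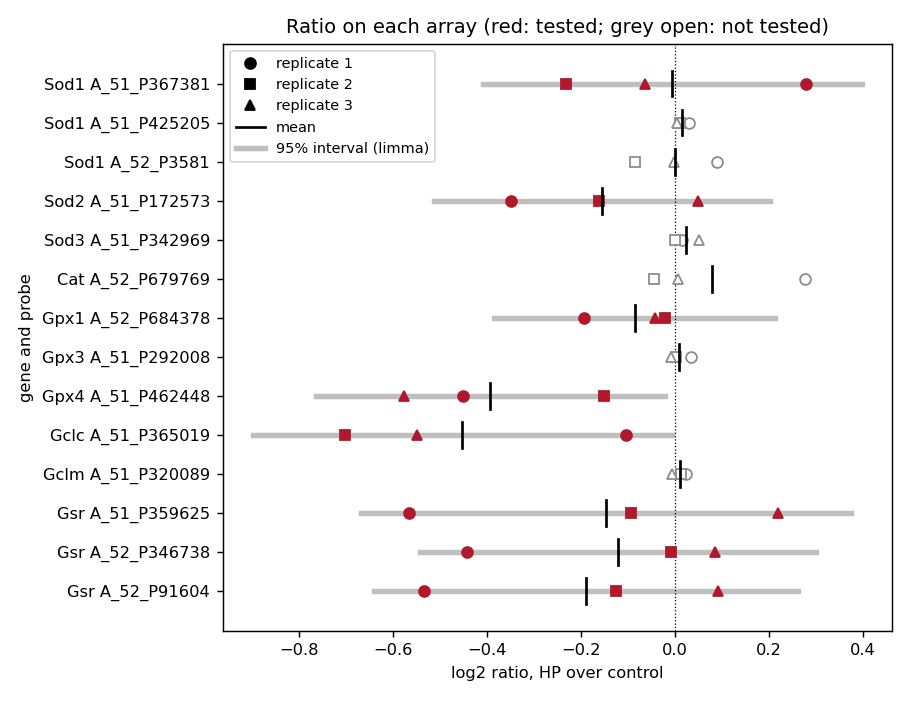
Log2 ratio of HP over control on each array for the 14 probes, with the mean (bar) and, for the 8 tested probes, its 95% interval (grey line, not adjusted). Tested probes are red and filled; probes that were not tested are open grey. The 3 Gsr probes place the arrays in the same order, with replicate 1 lowest at −0.57, −0.44 and −0.54.

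Gsr, the glutathione reductase, was read by 3 probes that gave much the same ratio on each array. On replicate 1 they gave −0.57, −0.44 and −0.54 (A_51_P359625, A_52_P346738 and A_52_P91604), on replicate 2 −0.09, −0.01 and −0.13, and on replicate 3 0.22, 0.09 and 0.09. The pairs of pools thus differed more from each other than the probes did within a pair. The means were −0.15 ± 0.19, −0.12 ± 0.15 and −0.19 ± 0.16, and none was separated from 0 (limma adjusted p = 0.685, 0.676 and 0.541). Without replicate 1 they were 0.06, 0.04 and −0.02, so the lower mean of HP rested on that array. In the scanner's processed ratios they were 0.02, −0.72 and 0.01, where the value of −0.72 holds −3.02 on replicate 1, with a surrogate in place of the HP signal.

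The levels behind these ratios separated the Gsr probes. A_51_P359625 gave log2 signals of 7.39, 6.76 and 6.83 in HP pools, against 7.95, 6.86 and 6.61 in control pools, and was brightest in both pools of replicate 1. The overlapping probe A_52_P91604 was likewise brightest there, with 6.79, 6.50 and 6.43 in HP pools, against 7.32, 6.63 and 6.34 in control pools. A_52_P346738, which reads another stretch, was not: it gave 6.20, 6.69 and 6.56 in HP pools, against 6.65, 6.70 and 6.48 in control pools. The signal was above background in 6 of 6 pools for A_51_P359625 and in 4 of 6 for each of the others. A_52_P346738 was not above it in the HP pool of replicate 1 and the control pool of replicate 3, nor A_52_P91604 in either pool of replicate 3. The ratios of these 2 probes on those arrays, and their likeness to A_51_P359625 there, thus rest on signals near background.

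Counts of the 8 tested probes are given here beside those of all tested probes, and a difference between them was not tested. Unadjusted limma p-values under 0.05 were found for 2 of 8 (Gpx4 and Gclc, both lower in HP), against 17.8% of all tested probes, of which 10.8% were lower and 7.01% higher in HP. Gpx4 passed the filter through its control signal alone, the channel where it was higher, so its place in these counts is no support. With both channels bright on all 3 arrays, 0 of 5 member probes had such a p-value, against 1139 of 4986 probes. After adjustment 0 of the 8 and 0% of all tested probes passed, with a lowest adjusted p of 0.177. On all 3 arrays 3 of the 8 were lower (Gpx1, Gpx4 and Gclc) and 0 higher, against 24.9% and 22.6% of all tested probes. A mean below 0 was found for 8 of 8, against 52.2%, but the 3 Gsr probes read 1 gene and genes measured on the same 3 pairs of pools are not independent. That count was 6 of 8 with the scanner's processed ratios and without replicate 1, against 48.2% and 50.7% of all tested probes. It was 7 of 8 with no intensity offset, with replicates 2 and 3 averaged, and without replicate 2 or 3. HP and control pools did not overlap for 0 of the 8, against 25.7% of all tested probes. The half-widths of the 95% intervals, not adjusted for the number of probes, ran from 0.30 to 0.52 on the log2 scale. Smaller differences could not be resolved with 3 arrays. Larger ones need not have been, as Gpx4 and Gclc, with intervals just below 0, did not pass adjustment.

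Among the 8 probes the arrays did not carry the direction equally. On replicates 1, 2 and 3, 7, 8 and 4 of the 8 ratios were below 0, with medians of −0.40, −0.14 and 0.00. The 3 Gsr probes, which read 1 gene, were all below 0 on replicate 1 and all above 0 on replicate 3. Shares and medians over all tested probes were not taken for single arrays, so these counts have no background beside them. With median centring the median over the 8 probes was −0.60, beside −0.37 over all tested probes, and unadjusted p-values under 0.05 were then found for 2921 lower and 57 higher of all tested probes, in place of 926 lower and 602 higher. In that scaling 5 of the 8 had an unadjusted limma p under 0.05. Relative to the median of all tested probes, 7 of the 8 were lower with loess and 7 of 8 with median centring.

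**Figure D4:**
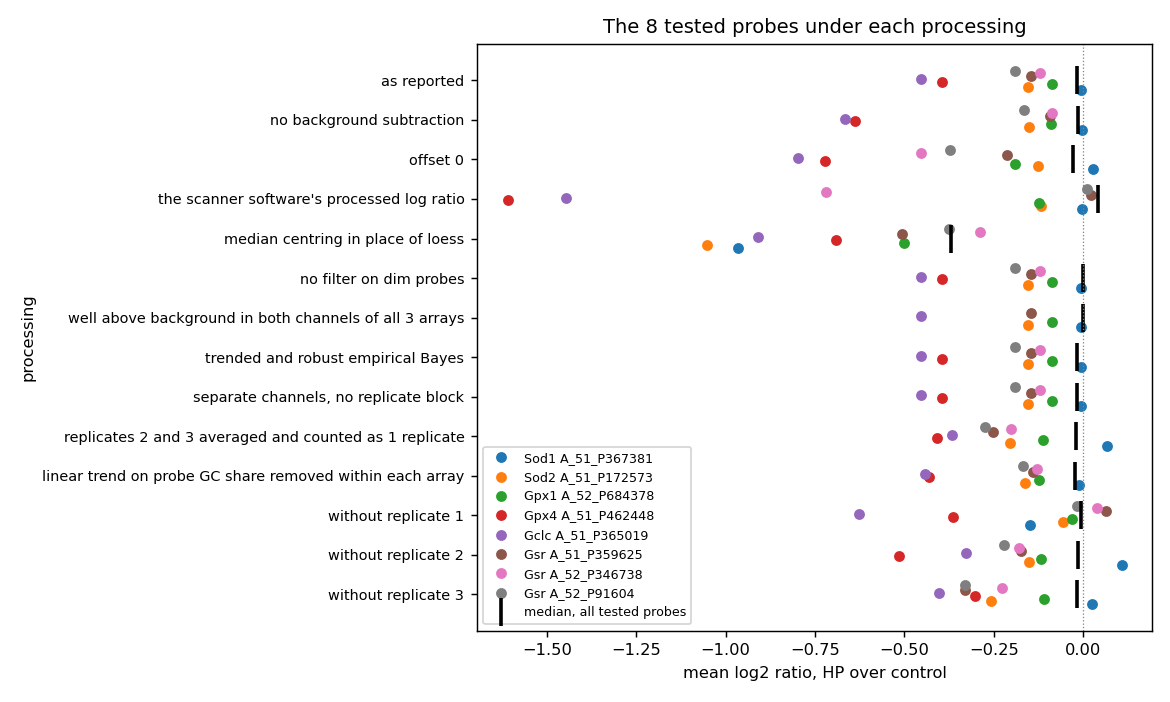
Mean log2 ratio of HP over control of the 8 tested probes (coloured points) under each processing, with the median of all tested probes as a black bar. Gpx4 and Gclc are below −0.3 throughout and reach −1.61 and −1.45 in the scanner's processed ratios, while Sod1 and the Gsr probes lie on either side of 0 and Sod1 is at −0.96 with median centring.

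Over the 8 probes, HP pools 2 and 3 were the closest pair, with a mean absolute difference of 0.15 in log2 signal. HP pool 1 differed by 0.39 from HP pool 2 and by 0.28 from HP pool 3. Control pools differed by 0.47 between replicates 1 and 2, by 0.46 between 1 and 3 and by 0.30 between 2 and 3. HP and control pools of the same array differed by 0.37, 0.19 and 0.21 on replicates 1, 2 and 3. For the 8 probes these lay within the range of differences between control pools or below it, but control pools were always on different arrays. HP and control pools of different arrays differed by 0.21 (HP pool 3 and control pool 2) to 0.60 (HP pool 2 and control pool 1). Control pool 1 differed from HP pools 2 and 3 by 0.60 and 0.54, above every pair of control pools, and the other such pairs did not exceed them. Over all tested probes the HP and control pools of the same array differed by 0.36, 0.47 and 0.31, and control pools by 0.32 to 0.37, so the pair of replicate 2 then lay above every pair of control pools. HP pools 2 and 3 were the closest pair there too, at 0.16.

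Probes of other genes with the most similar ratios were found by the distance between the 3 log2 ratios, among 6540 named tested probes (6538 for Gsr). Such likeness rests on 3 arrays and says nothing of a shared function. For Gclc the nearest were Txn1 (thioredoxin), at a distance of 0.01, Plpp3 (listed as Ppap2b) at 0.04 and Hsp90b1 at 0.04, with 10 probes within 0.1. For Gsr A_51_P359625 they were Slc35b3 at 0.03, Tmem70 at 0.08 and Nadk, the kinase that makes NADP, at 0.09. For Sod1 they were Eri1 (listed as Thex1) at 0.06, Cdc23 at 0.07 and Pdcd2 at 0.07, and for Sod2 Hdhd2 at 0.03, Tnks2 at 0.03 and Mia2 (listed as Mgea6) at 0.04. Gpx1, at −0.19, −0.02 and −0.04 on replicates 1, 2 and 3, had 61 probes within 0.1, led by Rps6, Ptp4a3 and Rtn4r, each at 0.04.

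The other genes of glutathione use and oxidant defence split in both directions. The list held 68 genes with 102 probes, of which 28 probes of 26 genes were tested. Of the 28, 13 had a mean below 0 and 15 above it, with a median of 0.05, against −0.15 for the 8 probes of the set and −0.02 for all tested probes. Unadjusted limma p-values under 0.05 were found for 6 lower and 3 higher of the 28, against 10.8% lower and 7.01% higher of all tested probes, and 0 passed adjustment. Of the 6 lower probes, 2 read 1 gene, Glrx3. Without replicate 2, 5 of the 28 had an unadjusted p under 0.05, in place of 9. Over all 8590 tested probes the same count was then 798, in place of 1528. The remaining 42 genes had no tested probe, among them Gss, which completes glutathione synthesis, and the stress-induced genes Hmox1 and Nqo1.

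Ccs encodes the chaperone that loads copper into Sod1, and its tested probe A_52_P400224 was below 0 on every array. This probe gave log2 signals of 7.13, 6.59 and 6.86 in HP pools, against 7.64, 7.40 and 7.23 in control pools, and no HP pool reached a control pool. Of all tested probes, 24.9% were lower on all 3 arrays and 25.7% had pools that did not overlap, in either direction. The mean log2 ratio of A_52_P400224 was −0.56 ± 0.14 (limma adjusted p = 0.199). Another Ccs probe, A_51_P193536, was above background in 0 HP and 0 control pools and was not tested. Sod1 itself had a mean of −0.01 on the same arrays.

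Among the glutathione transferases, 1 of 6 tested probes had an unadjusted limma p under 0.05, against 17.8% of all tested probes. This was Gsto1, of the omega class, with log2 signals of 8.61, 7.25 and 7.62 in HP pools, against 9.49, 8.75 and 9.15 in control pools, and a mean ratio of −1.30 ± 0.18 (adjusted p = 0.177). Gstm3, of the mu class, was highest at 0.56 ± 0.24, with −0.01 on replicate 3 (adjusted p = 0.321).

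Of 9 tested probes of glutaredoxins and NADPH-supplying enzymes, 3 lower and 2 higher ones had an unadjusted limma p under 0.05, against 10.8% lower and 7.01% higher of all tested probes. Glrx3 (listed as Txnl2), a cytosolic glutaredoxin, was read by 2 probes with means of −1.05 ± 0.22 and −1.07 ± 0.33 (adjusted p = 0.182 and 0.244). These were 2 of the 3 lower probes but read 1 gene. Glrx5, the mitochondrial glutaredoxin of iron-sulfur cluster assembly, stood opposite at 0.88 ± 0.18 (adjusted p = 0.180), with log2 signals of 8.28, 8.33 and 8.01 in HP pools, against 7.77, 7.09 and 7.13 in control pools.

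In the list of glutathione synthesis and supply, 1 of 5 tested probes had an unadjusted limma p under 0.05, against 17.8% of all tested probes. It was that of Ggct, which releases oxoproline from gamma-glutamyl peptides, at 0.52 ± 0.14 (adjusted p = 0.226), with a control signal above background in 1 of 3 pools. The Ggct probe was thus tested through its HP signal alone, the channel where it was higher. Chac1, which degrades glutathione, gave 1.17, −0.79 and 1.55 on replicates 1, 2 and 3, with a mean of 0.64 ± 0.52 (adjusted p = 0.513). Ggt6, of the gamma-glutamyltransferase family, was at −0.83 ± 0.39 (adjusted p = 0.344).

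Of 7 tested probes of the Nrf2 axis, which controls many glutathione genes, 1 had an unadjusted limma p under 0.05, against 17.8% of all tested probes. It was that of Bach1, a repressor at the same DNA elements, at −0.63 ± 0.13 (adjusted p = 0.183), with an HP signal above background in 1 of 3 pools. The Bach1 probe was thus tested through its control signal alone, the channel where it was higher. For the small Maf protein Mafg, a partner of Nrf2, probe A_52_P596112 was above background in 2 of 3 HP pools and in 0 of 3 control pools. It was thus tested through its HP signal alone. Another Mafg probe, A_52_P240754, was above background in 0 HP and 0 control pools and was not tested. The log2 signals of A_52_P596112 averaged 6.47 in HP pools and 6.28 in control pools, the control level being only a bound, and the ratio was not separated from 0 (limma adjusted p = 0.400).

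**Figure D5:**
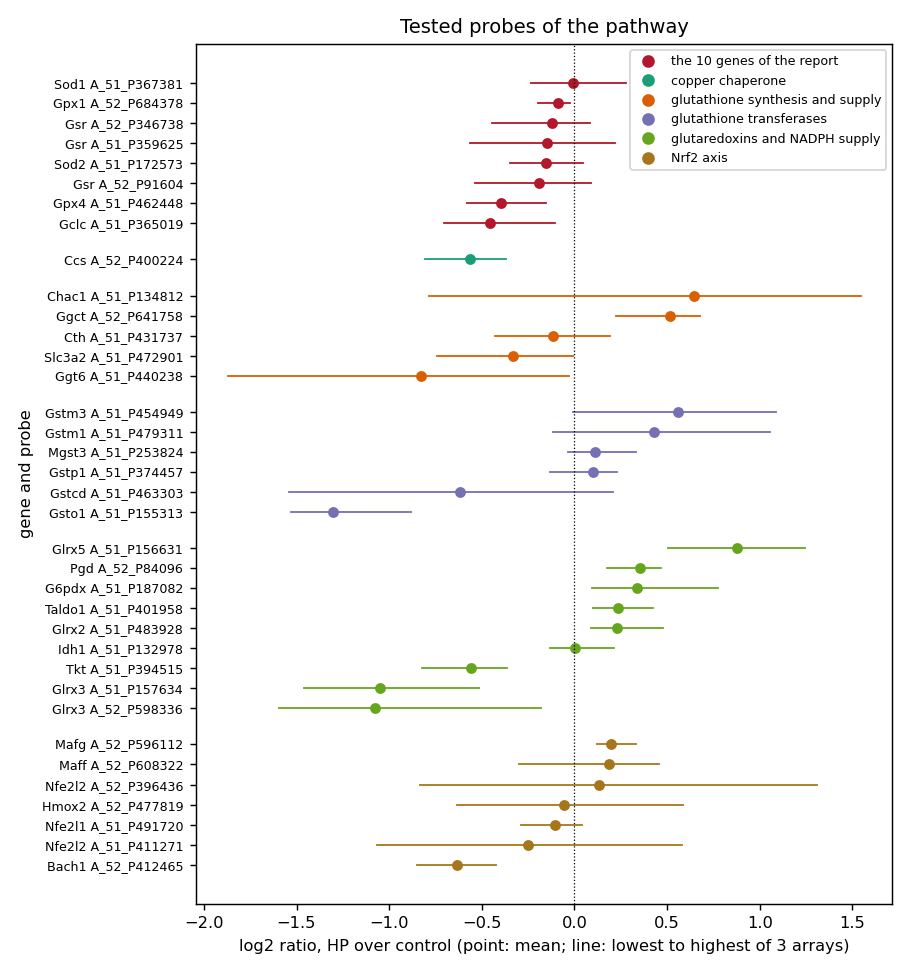
Log2 ratio of HP over control of the 8 tested probes of the set (red) and of 28 tested probes of other pathway genes (other colours), as the mean (point) and the lowest to highest of 3 arrays (line). Gsto1 at −1.30 and Glrx3 at −1.05 and −1.07 lie below every probe of the set, and Glrx5 at 0.88 lies above 0 on every array.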

How the data were processed

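Per the submitters' processing notes, spots were read by Agilent Feature Extraction 9.5.1.1. Spot means and local background medians were deposited as intensity values with nothing subtracted, per the file headers. The deposited log10 ratios compare Cy5 with Cy3 processed signals, after background subtraction, detrending and dye normalization within the array, with surrogates for dim spots, and the authors' series table repeats them (largest difference 5e-10).

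Here limma 3.58.1 (R 4.3.3) corrected the background (normexp, offset 50), normalized each array by loess without control spots, dropped spots the software called outliers and averaged spots of a probe. The offset draws ratios of dim probes towards 0. Log2 (Cy5 over Cy3) was fitted as an intercept over 3 arrays with moderated errors (n = 3 throughout), adjusted by Benjamini-Hochberg over 8590 probes at 0.05. Signals per pool followed Aquantile scaling. The steps were tested on simulated data. Levels of different probes were not compared.

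Members, lists and tests were chosen with earlier results of these data known. Besides the members, the text names from each list the 2 probes with the smallest p among those of 1 sign on all arrays and bright in 1 channel on all, and the highest and lowest; Hmox1, Nqo1 and Gss were named after their calls were seen. RefSeq accessions (GRCm38.p6 table) matched 12 of 14 member probes and gave current symbols.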

Additional observations from a re-analysis of the deposited data

How the results depend on the processing

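The 14 other settings changed no member from below to past the adjusted threshold except Sod2 with median centring. Gpx1, Gpx4, Gclc and Sod2 kept a mean below 0 in every setting that gave them a value. Sod1 moved most with median centring, to −0.96 (limma adjusted p = 0.0829). It turned to 0.028 with no intensity offset and to 0.066 with replicates 2 and 3 averaged as 1, and ran from −0.15 to 0.11 with 1 replicate left out. Gsr turned to 0.021 (A_51_P359625) and 0.011 (A_52_P91604) with the scanner's log ratios and with the series table, which holds the same values, and without 1 replicate ran from −0.33 to 0.063 for A_51_P359625 and from −0.23 to 0.039 for A_52_P346738. The probes of Gpx4, Gsr A_52_P346738 and Gsr A_52_P91604 gave no value when both channels had to be bright on all arrays.

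The count of member probes with an unadjusted limma p under 0.05, 2 as reported, was 5 with median centring, 1 with the scanner's log ratios, the series table or the trend on probe base composition removed, and 0 with the filter on both channels, with replicates 2 and 3 averaged, with no replicate block (each channel fitted on its own) or with robust, trended moderation. Without 1 replicate it was 0 to 1. Over all probes the adjusted count of 0 became 1140 with median centring. The unadjusted count of 1528 became 2978 with median centring, 2585 with no filter and 971 with replicates 2 and 3 averaged, and it was 2131 without replicate 1, 798 without replicate 2 and 868 without replicate 3. The count for other pathway probes ran from 5 to 9 without 1 replicate. The cause of these shifts was not tested. The separate-channel fit dropped the pairing of pools on an array and left 0 adjusted calls. Signal over background limits 6 of the 14 probes, which gave no test.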
